A study of Mus musculus with 6 samples.

Results

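The transforming growth factor beta (TGF-beta) and bone morphogenetic protein (BMP) pathway was followed through 43 genes, chosen by symbol from a list of its ligands, receptors, Smads, regulators and targets, among 49671 genes counted in each library. They comprise 10 ligands, 7 receptors, 7 Smads, 7 extracellular regulators, and 12 targets and nuclear regulators. All 43 had an identifier in the count tables and a row in the authors' deposited comparison table. A filter on low counts kept 38 of them, among 15355 genes of the whole table.

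The cells were mouse induced renal epithelial cells (iRECs), a tubule-like state reached by forcing fibroblasts to express transcription factors of the kidney. The Cre group held cultures transduced with Cre recombinase and labelled Pkd1 knockout (Pkd1 -/-), and the Flp group held cultures transduced with Flp recombinase and labelled Pkd1 wild type (Pkd1 fl/fl). Both groups carried the floxed allele of strain B6.129S4-Pkd1tm2Ggg/J, grew in serum-containing medium and were taken at confluency. Each of clones 4, 7 and 21 gave 1 Cre and 1 Flp library of total RNA, so n = 3 per group. Pkd1 encodes polycystin-1, and its loss causes cyst growth in kidney tubules. Whether the clones derive from different animals is not stated in the labels, and p-values therefore cover only the spread between these 3 pairs.

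TGF-beta family ligands bind type II receptors, which activate type I receptors, which in turn phosphorylate receptor Smads. Smad2 and Smad3 carry the TGF-beta and activin signal, Smad1 and Smad5 carry the BMP signal, and Smad4 joins both. In the kidney TGF-beta is best known for driving fibrosis, and BMP7 for keeping nephron progenitors and epithelium alive.

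Total gene counts ran from 25196120 to 46918341 per library, and a count of 0 allowed up to 0.0632 CPM (counts scaled to TMM-adjusted library size) in the deepest and 0.121 CPM in the shallowest, counting error only. Pkd1 was at 145, 105 and 118 CPM in Cre, against 199, 229 and 166 CPM in Flp of clones 4, 7 and 21 (edgeR adjusted p = 0.6065, DESeq2 adjusted p = 0.0363), and 3.98% of its exon bases overlap Tsc2. All 10 tubule markers passed the filter, and their summed level was 7570 to 9220 CPM in Cre and 8410 to 9740 CPM in Flp. Of 7 fibroblast markers 5 passed, with summed levels of 158 to 307 CPM in Cre and 238 to 337 CPM in Flp. Most of that sum was Vim, while Thy1 had no read in any library. The endothelial markers Cdh5 and Kdr and the macrophage marker Adgre1 had no read either. Others of their lists were detected: Tek reached at most 1.76 CPM, and the macrophage marker Cd68 was at 4.42 to 6.62 CPM over all libraries. Haematopoietic markers summed to at most 6.72 CPM in Cre and 6.94 CPM in Flp. Summed podocyte markers reached at most 4.02 CPM in Cre and 8.71 CPM in Flp. Across genes, on log2 CPM, the Flp library of clone 7 lay closer to the Cre library of clone 4 (r = 0.989) than to that of clone 7 (r = 0.980). Likewise the Flp library of clone 21 had r = 0.987 with Cre clone 4 and r = 0.984 with Cre clone 21. By this measure the labelled pairing of both clones does not stand out. Deviations from the group mean correlated at 0.115 to 0.304 within labelled pairs and at -0.268 to 0.0233 between unlike clones. The labels were followed. With single clones left out in turn, the fitted log2 fold changes ranged from -2.59 to -1.44 for Tgfbi, -0.60 to -0.48 for Pmepa1, 0.34 to 0.72 for Id2, 0.48 to 0.76 for Bmpr1a, 0.39 to 0.60 for Bmp1 and 0.48 to 1.31 for Loxl2. Members share at most 9.34% of their exon bases with another annotated gene, and reads in those bases cannot be told apart because the strand setting is unknown.

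Promoters of 3 members are shown because they belong to the members with the same direction in every clone and a fitted log2 fold change of at least 0.5 that have an entry in the RefSeq promoter table (GRCm38.p6). Each is the 250 bases before the RefSeq start, read 5′ to 3′ on the gene's own strand. Capitals mark matches to GGCGCC and GGAGCC, short GC-rich motifs of the kind bound by BMP-activated Smads, on either strand. No marked motif overlaps another in these bases.
Tgfbi, chr13:56609336-56609585, + strand: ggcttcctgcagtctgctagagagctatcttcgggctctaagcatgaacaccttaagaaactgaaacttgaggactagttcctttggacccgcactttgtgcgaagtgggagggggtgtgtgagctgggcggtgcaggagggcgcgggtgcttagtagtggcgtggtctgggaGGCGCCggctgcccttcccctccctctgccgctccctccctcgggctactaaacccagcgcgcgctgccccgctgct
Id2, chr12:25096093-25096342, - strand: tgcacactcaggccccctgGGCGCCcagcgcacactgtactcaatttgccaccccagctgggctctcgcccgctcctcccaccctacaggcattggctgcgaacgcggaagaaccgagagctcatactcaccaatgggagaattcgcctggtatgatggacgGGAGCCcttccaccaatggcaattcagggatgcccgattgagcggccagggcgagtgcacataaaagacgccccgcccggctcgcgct
Bmpr1a, chr14:34502547-34502796, - strand: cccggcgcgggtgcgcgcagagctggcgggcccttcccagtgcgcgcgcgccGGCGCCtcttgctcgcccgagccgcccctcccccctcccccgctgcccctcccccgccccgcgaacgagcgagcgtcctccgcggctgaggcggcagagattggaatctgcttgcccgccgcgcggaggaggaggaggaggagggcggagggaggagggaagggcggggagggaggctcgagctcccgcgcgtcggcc

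Over the full promoter windows, 250 bases before to 50 after the start, 26 members had 35 entries. GGCGCC occurred in 25.7% of these entries and in 11.9% of all 32851 promoters, and GGAGCC, or GGCTCC on the other strand, in 42.9% and 30.8%. CAGACA, or TGTCTG on the other strand, the Smad box bound by Smad3 and Smad4, occurred in 17.1% and 21.0%. Tgfbi, Id2 and Bmpr1a each held 1 GGCGCC and no CAGACA in the bases printed, although Tgfbi was lower and Id2 and Bmpr1a higher in Cre of every clone. A match is a stretch of letters and was not tested as a binding site.

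The comparison of Cre with Flp asked whether expression of the pathway differed after loss of polycystin-1. Lower in Cre of every clone, with fitted log2 fold changes beyond -0.5, were Tgfbi, a secreted matrix protein named for its induction by TGF-beta, and Pmepa1, a membrane protein induced by TGF-beta that restrains its Smads. Higher in Cre of every clone, with fitted values of 0.49 to 0.92, were Id2, Bmpr1a, Bmp1 and Loxl2. Id2 is an inhibitor of basic helix-loop-helix factors and a BMP target, and Bmpr1a encodes a BMP type I receptor. Bmp1 encodes a procollagen protease, and Loxl2 a collagen crosslinking enzyme. Bmp1, at 0.49, was included for its call in the authors' deposited table. None of the genes named here had an edgeR adjusted p under 0.6065. Bmpr1a, Bmp1 and Loxl2 lie on chromosome 14, where neighbouring genes had median ratios of 0.64 to 0.93 in clones 7 and 21. Less neighbours, they averaged -0.02, -0.05 and 0.38 over the clones. Pmepa1, on chromosome 2, averaged -0.28 by that measure. The Smads themselves had fitted values between -0.30 and 0.13. In such bulk samples, fewer cells expressing a gene and less RNA per cell cannot be told apart.

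By edgeR's quasi-likelihood test with clone as a block and Benjamini-Hochberg adjustment, 0 of 38 members passed an adjusted p of 0.05, as did 0% of the 15355 genes tested. At an unadjusted p under 0.05, 7 members were counted (18.4%), 4 higher and 3 lower in Cre, against 6.82% of all genes tested, 3.54% higher and 3.28% lower. Those 7 were Bmpr1a, Bmp1, Loxl2 and Id2 above 0, and Tgfbi, Pmepa1 and Acvr1 below. Outside chromosomes 14 and 2 the count was 2 of 29 members (6.9%), against 6.82% of all genes, those on chromosomes 14 and 2 included. This split was chosen after the data were seen and left out both chromosomes whole. It dropped Acvr1, whose neighbouring genes had median ratios of 0.09, 0.01 and 0.04 in clones 4, 7 and 21. How far position bears on the count was not tested. DESeq2 with the same block called 1 member, Pmepa1, lower in Cre, where it called 1.31% of 15124 genes, 0.701% higher and 0.608% lower. The authors' deposited table called Bmpr1a and Bmp1 higher and Pmepa1 lower, 3 of 38 members, against 1.37% of the 12973 genes with an adjusted p there, 0.817% higher and 0.555% lower.

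The median fitted log2 fold change of the 38 members was -0.02, with 19 above 0 and 19 below, where the median of all genes tested was 0.00. It was under 0.5 in size for 29 members, and for 84.7% of all genes. The members' median ratio within a clone was -0.15 for clone 4, -0.04 for clone 7 and 0.08 for clone 21. In 12 members (31.6%) the 3 clones shared a direction, 5 higher and 7 lower, against 27.7% of all genes, 14.6% higher and 13.1% lower. Only 2 members had Cre and Flp libraries that did not overlap, Bmp1 above and Smad1 below (5.26%), against 8.13% of all genes, 4.19% above and 3.95% below.

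**Figure D1:**
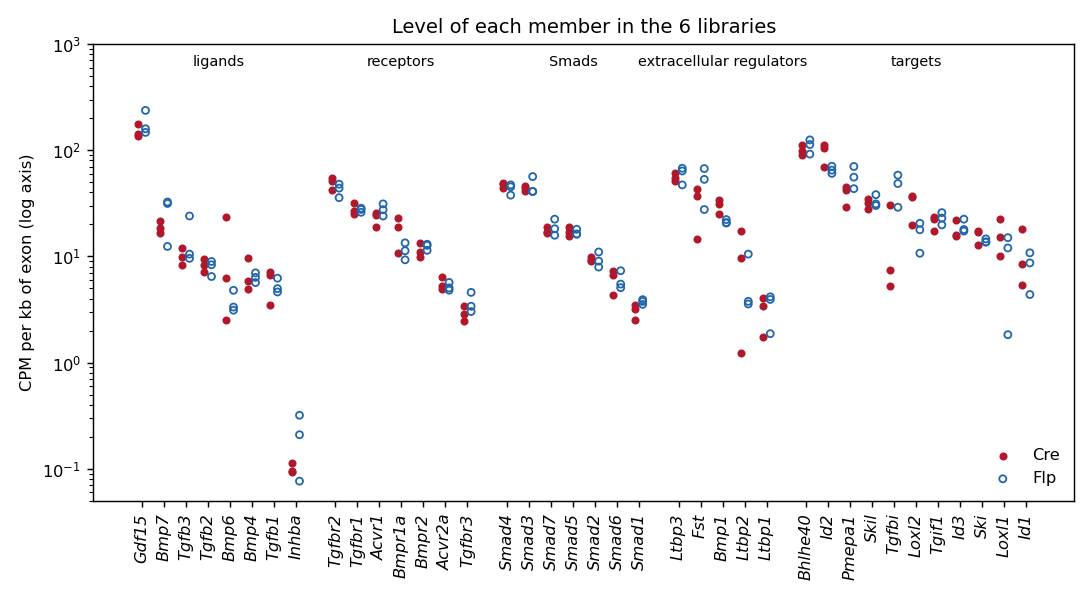
Level of the 38 members that passed the filter, in CPM per kilobase of exon on a log axis, grouped by role; filled red points are the 3 Cre libraries and open blue points the 3 Flp libraries. Gdf15, Bhlhe40 and Id2 stood highest, Inhba lowest, and the Smad points lay close together while those of Tgfbi, Bmp6, Ltbp2 and Loxl1 were spread.

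Ligands. Counted per kilobase of exon, which allows levels of different genes to be set side by side, the ligands ran from 0.151 CPM per kb for Inhba, the activin beta A chain, to 166 CPM per kb for Gdf15, a stress-induced ligand that signals through a receptor outside the Smad system. Gdf15 (chromosome 8, 70629393 to 70632456) was at 325, 264 and 250 CPM in Cre of clones 4, 7 and 21, against 439, 294 and 273 CPM in Flp. Cre was lower in every clone, by log2 ratios of -0.43, -0.15 and -0.13, but the groups overlapped and the fitted value was -0.24 (SE 0.11, edgeR adjusted p = 0.7843), or -0.14 without clone 4. Second by length-scaled level was Bmp7, the kidney's epithelial BMP, at 22.1 CPM per kb. It averaged 75.4 ± 9.29 CPM in Cre, against 102 ± 45.5 CPM in Flp (SD, n = 3 each), with clone ratios of -0.57, 0.56 and -0.96.

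The TGF-beta isoforms stood close together, at 12.4 CPM per kb for Tgfb3, 8.10 for Tgfb2 and 5.52 for Tgfb1. Tgfb3 was at 41.1, 27.9 and 33.5 CPM in Cre, against 81.2, 32.4 and 35.4 CPM in Flp. Its Flp library of clone 4 stood apart from the other 5, and the fitted log2 fold change was -0.43 (SE 0.20, edgeR adjusted p = 0.7849). Tgfb1 averaged 29.1 ± 10.1 CPM in Cre, against 26.6 ± 4.26 CPM in Flp, and Tgfb2 48.0 ± 6.40 CPM in Cre, against 45.8 ± 7.52 CPM in Flp (SD, n = 3 each). For neither isoform did the clones share a direction.

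Bmp6, known in mouse liver as the ligand that regulates iron, was at 9.75, 24.3 and 91.7 CPM in Cre, against 12.1, 18.7 and 13.0 CPM in Flp. Cre clone 21 alone stood high, 7.06-fold above its own Flp library, and the clone ratios were -0.31, 0.38 and 2.81. Bmp4, which patterns the ureteric bud, averaged 15.4 ± 5.56 CPM in Cre, against 14.2 ± 1.49 CPM in Flp (SD, n = 3 each), with clone ratios of -0.49, 0.60 and 0.06. Inhba was at 0.591, 0.720 and 0.611 CPM in Cre, against 1.33, 2.04 and 0.488 CPM in Flp, from 13 to 82 reads a library. Bmp2 and Inhbb missed the filter: Bmp2 had 0, 24 and 9 reads in Cre and 0, 2 and 4 in Flp, and Inhbb 5, 0 and 2 reads in Cre and 0, 1 and 6 in Flp.

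**Figure D2:**
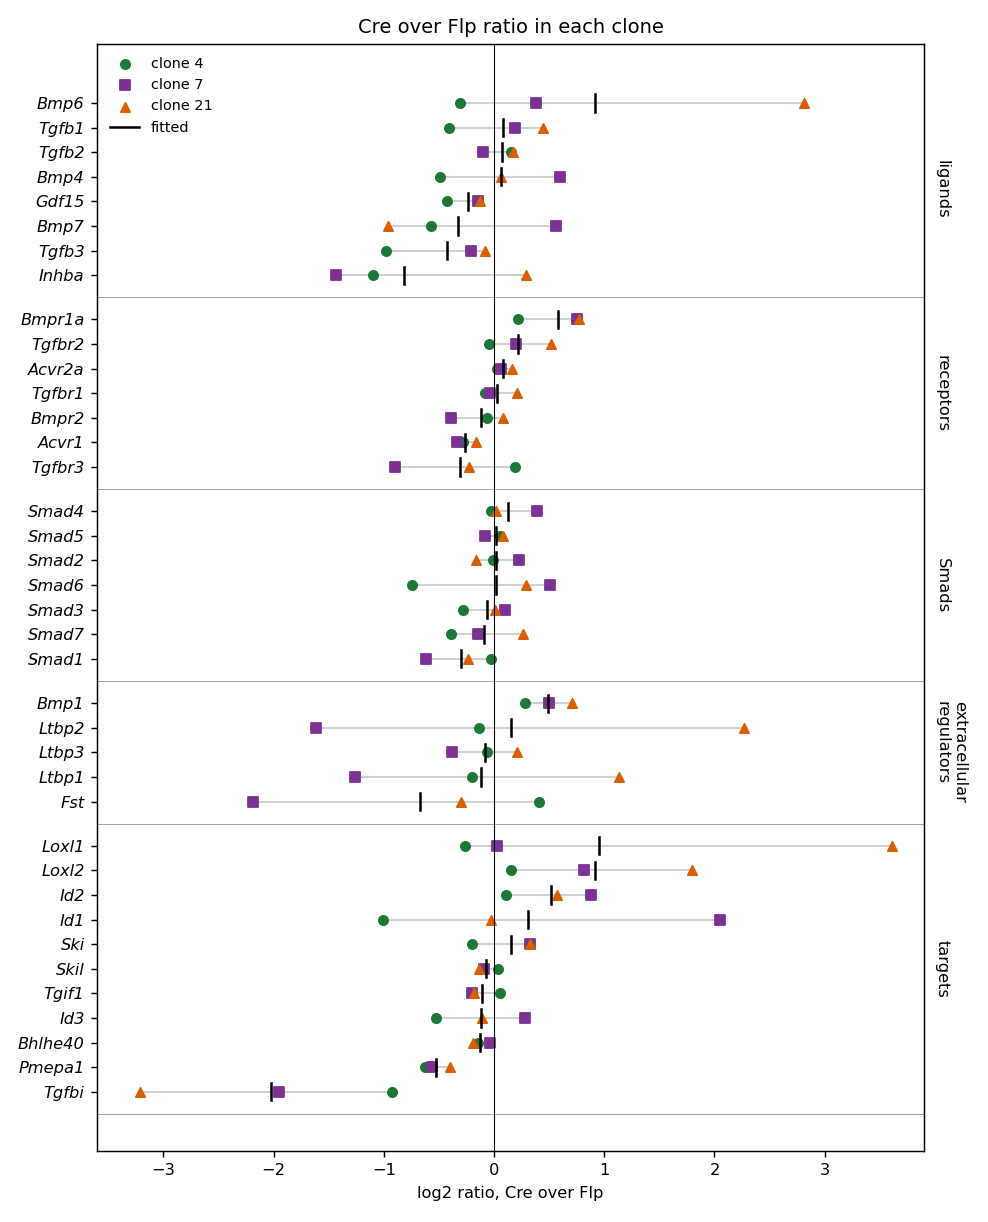
Log2 ratio of Cre over Flp in clones 4 (circles), 7 (squares) and 21 (triangles) for the 38 members, by role, with the value fitted by edgeR as a black bar. Pmepa1, at -0.63, -0.56 and -0.40, lay left of 0 in every clone with little spread, while Loxl1, Ltbp2 and Bmp6 spread over more than 3 log2 units.

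Receptors. All 7 receptor genes passed the filter, at 3.30 to 46.0 CPM per kb. Tgfbr2, the TGF-beta type II receptor, was highest. It was at 347, 451 and 420 CPM in Cre, against 360, 392 and 292 CPM in Flp, with clone ratios of -0.05, 0.20 and 0.52 and a fitted value of 0.22 (SE 0.14, edgeR adjusted p = 0.8668). That value was 0.07 without clone 21 and 0.36 without clone 4. The type I receptor Tgfbr1 averaged 183 ± 23.1 CPM in Cre, against 179 ± 8.09 CPM in Flp (SD, n = 3 each), and its 6 libraries differed by at most 1.27-fold.

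Bmpr1a (chromosome 14, 34410734 to 34503341), a type I receptor for BMP ligands, was at 68.8, 120 and 145 CPM in Cre, against 59.0, 71.6 and 84.9 CPM in Flp. Cre was higher in each clone, though the groups overlapped because Cre clone 4 lay below 2 of the Flp libraries. The clone ratios were 0.22, 0.75 and 0.77, and the fitted log2 fold change was 0.58 (SE 0.14, edgeR adjusted p = 0.6065, DESeq2 adjusted p = 0.0772). The authors' deposited table gave 0.50 with an adjusted p of 0.0483. The median ratio of its 50 nearest expressed neighbours was 0.14, 0.78 and 0.88 in clones 4, 7 and 21, so the receptor differed from its neighbours by 0.08, -0.03 and -0.11.

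Acvr1, a type I receptor shared by activin and BMP ligands, was at 124, 91.4 and 119 CPM in Cre, against 151, 116 and 133 CPM in Flp. It was lower in Cre of every clone, with log2 ratios of -0.28, -0.34 and -0.16 and a fitted value of -0.26 (SE 0.10, edgeR adjusted p = 0.6981). The type II receptors Bmpr2 and Acvr2a averaged 206 ± 32.2 and 31.3 ± 4.30 CPM in Cre, against 223 ± 14.8 and 29.4 ± 2.58 CPM in Flp (SD, n = 3 each). The co-receptor Tgfbr3, betaglycan, averaged 19.2 ± 3.23 CPM in Cre, against 24.0 ± 5.36 CPM in Flp (SD, n = 3 each), with its largest clone ratio, -0.90, in clone 7.

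Smads. The 7 Smad genes differed little between libraries, with fitted log2 fold changes from -0.30 to 0.13, and the highest of their 6 libraries was 1.23 to 1.68 times the lowest. Smad4 and Smad3 were highest, at 45.3 and 44.9 CPM per kb. Smad4 was at 165, 184 and 178 CPM in Cre, against 168, 140 and 175 CPM in Flp, a fitted value of 0.13 (SE 0.12, edgeR adjusted p = 0.9264) that became 0.00 without clone 7 and 0.21 without clone 4. Smad3 averaged 242 ± 15.2 CPM in Cre, against 255 ± 49.9 CPM in Flp, and Smad2 82.2 ± 3.77 CPM in Cre, against 81.8 ± 13.7 CPM in Flp (SD, n = 3 each).

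Of the BMP-branch Smads, Smad5 averaged 126 ± 13.5 CPM in Cre, against 125 ± 7.59 CPM in Flp (SD, n = 3 each). Smad1 was at 21.7, 15.9 and 19.9 CPM in Cre, against 22.1, 24.5 and 23.5 CPM in Flp. All 3 Cre libraries lay below all 3 Flp libraries, yet clone 4 differed by only -0.03 and the fitted value was -0.30 (SE 0.18, edgeR adjusted p = 0.8524). The inhibitory Smads, which are themselves induced by the pathway, did not share a direction over the clones. Smad7 averaged 79.2 ± 5.78 CPM in Cre, against 85.2 ± 15.1 CPM in Flp, and Smad6 19.6 ± 4.89 CPM in Cre, against 19.1 ± 3.84 CPM in Flp (SD, n = 3 each).

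Extracellular regulators. Latent TGF-beta binding proteins hold the secreted ligand in the matrix, Bmp1 cleaves procollagen and the BMP antagonist chordin, and follistatin, noggin and gremlin trap ligands. Bmp1 (chromosome 14, 70474558 to 70520234) was at 221, 278 and 301 CPM in Cre, against 182, 197 and 184 CPM in Flp. The groups did not overlap, and the clone ratios of 0.28, 0.50 and 0.71 gave a fitted log2 fold change of 0.49 (SE 0.12, edgeR adjusted p = 0.6065, DESeq2 adjusted p = 0.0952). In the authors' deposited table it stood at 0.45 with an adjusted p of 0.0451. Its neighbours on chromosome 14 had medians of 0.05, 0.91 and 0.69, from which Bmp1 differed by 0.23, -0.41 and 0.02.

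Ltbp3 was the highest extracellular regulator among the members, at 57.6 CPM per kb. It was at 555, 470 and 493 CPM in Cre, against 578, 613 and 427 CPM in Flp, and its fitted value of -0.08 (SE 0.14, edgeR adjusted p = 0.9727) was 0.08 without clone 7 and -0.22 without clone 21. Ltbp1 and Ltbp2 differed in opposite ways in clones 7 and 21, by at least 1 log2 unit each, as did Id1 in clones 4 and 7; 2.89% of all genes did so. Ltbp1 was at 36.5, 18.6 and 43.7 CPM in Cre, against 42.0, 44.4 and 20.0 CPM in Flp of clones 4, 7 and 21. Ltbp2, a matrix protein of the same family that does not bind latent TGF-beta, was at 78.3, 9.98 and 141 CPM in Cre, against 86.0, 30.8 and 29.1 CPM in Flp. Both were lower in Cre of clone 7 and higher in Cre of clone 21, while clone 4 was nearly level. The summed fibroblast markers lay the same way in both clones, with 158 CPM for Cre against 275 CPM for Flp in clone 7, and 307 CPM for Cre against 238 CPM for Flp in clone 21. In clone 4 they summed to 237 CPM for Cre against 337 CPM for Flp, and their part in these values was not tested.

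Fst, follistatin, which binds activins, was at 168, 67.5 and 197 CPM in Cre, against 126, 308 and 244 CPM in Flp. Clone 7 differed most, with Flp 4.56-fold above Cre and a log2 ratio of -2.19, while the ratios of clones 4 and 21 were 0.41 and -0.30. The antagonists Nog and Grem1 missed the filter. Nog had 3, 0 and 1 reads in Cre and 2, 3 and 6 in Flp, and Grem1 had 1 read in all, in Flp clone 4.

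Targets and nuclear regulators. Tgfbi (chromosome 13, 56609523 to 56639562) was at 115, 28.2 and 19.7 CPM in the Cre libraries of clones 4, 7 and 21, against 219, 109 and 183 CPM in Flp. Each Cre library was below its own Flp library, and the 2 lowest of all were Cre clones 7 and 21, while Cre clone 4 lay just above Flp clone 7. The ratios of -0.93, -1.95 and -3.21 gave a fitted log2 fold change of -2.02 (SE 0.43, edgeR adjusted p = 0.6065, DESeq2 adjusted p = 0.0624), the lowest fitted value of the 38 members. Without the filter on low counts edgeR gave it an adjusted p of 0.000122, the lowest of its alternatives, whose adjusted p reached 1 at the other end. Medians of its neighbours on chromosome 13 were 0.04, 0.02 and -0.02. The authors' deposited table gave -0.51 with an adjusted p of 0.228. Its log2 fold changes were also nearer 0 for Loxl1, at 0.10 against 0.95 fitted here, and for Bmp6, at 0.28 against 0.92. The sizes from the 2 sources are therefore not on a like scale, and the cause was not tested.

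Pmepa1 (chromosome 2, 173224458 to 173276533) was at 222, 144 and 207 CPM in Cre, against 345, 213 and 274 CPM in Flp. Cre was lower in each clone by a like amount, -0.63, -0.56 and -0.40, although Cre clone 4 lay above Flp clone 7. The fitted log2 fold change was -0.53 (SE 0.10, edgeR adjusted p = 0.6065), and by DESeq2 with the clone block the adjusted p was 0.0270. In the authors' deposited table it was -0.48, adjusted p = 0.00986. Over all fits of the alternatives its adjusted p by edgeR or DESeq2 ranged from 0.0270 to 1. Its neighbours had medians of -0.09 and 0.00 in clones 4 and 7 but -0.65 in clone 21, so that in clone 21 Pmepa1 lay 0.25 above them. Measured against neighbours the mean over clones was -0.28.

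**Figure D3:**
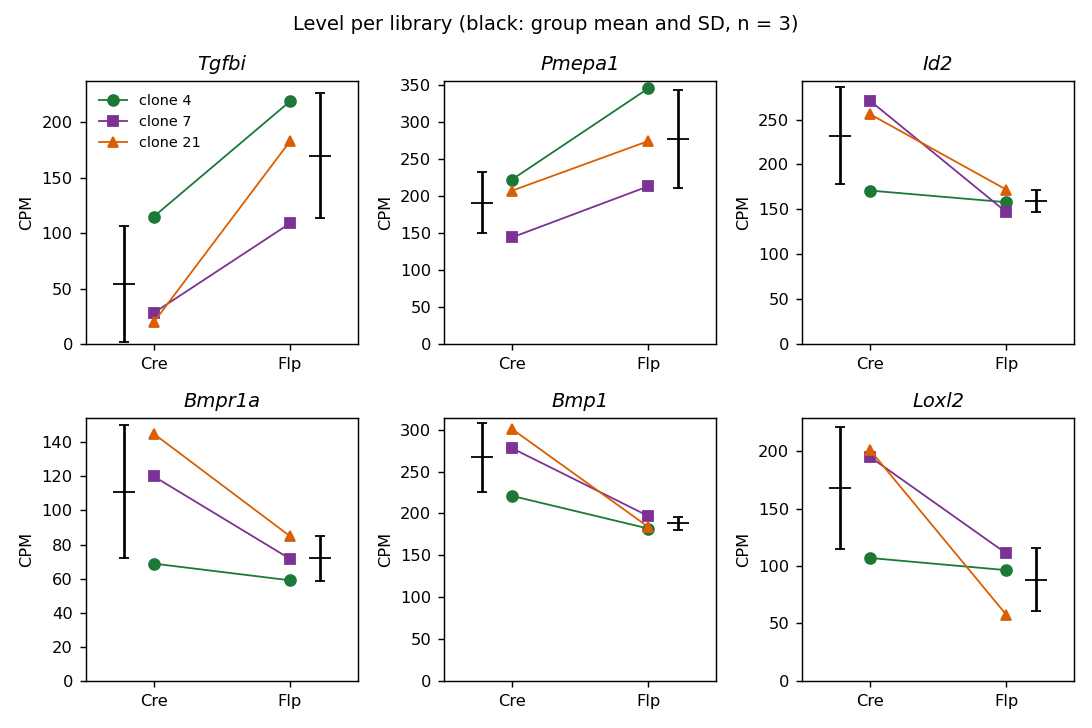
Level in CPM of the 6 members with the same direction in every clone and either a fitted log2 fold change of at least 0.5 in size or a call in the authors' deposited table; lines join the Cre (left) and Flp (right) library of a clone, and black bars are group means with SD (n = 3). Tgfbi and Pmepa1 slope up to Flp in every clone, and Id2, Bmpr1a, Bmp1 and Loxl2 slope down.

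Skil and Ski, TGF-beta-regulated genes whose products repress Smad-driven transcription, averaged 306 ± 31.0 and 87.2 ± 14.4 CPM in Cre, against 321 ± 42.4 and 77.8 ± 2.92 CPM in Flp (SD, n = 3 each). Bhlhe40, a repressor that answers to TGF-beta and many other stimuli and the most abundant target per kilobase, was at 531, 420 and 467 CPM in Cre, against 590, 432 and 532 CPM in Flp. Its fitted value was -0.13 (SE 0.10, edgeR adjusted p = 0.9074). Tgif1, a corepressor of Smad2, averaged 119 ± 19.8 CPM in Cre, against 128 ± 16.8 CPM in Flp (SD, n = 3 each).

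The Id genes are the classic targets of BMP-activated Smads, and their clone ratios differed. Id2 (chromosome 12, 25093799 to 25097140) was at 171, 271 and 256 CPM in Cre, against 158, 147 and 172 CPM in Flp. Cre was higher in each clone, by 0.11, 0.88 and 0.57, with Cre clone 4 just under Flp clone 21, and the fitted value was 0.52 (SE 0.16, edgeR adjusted p = 0.6455, DESeq2 adjusted p = 0.208), or 0.34 without clone 7. Its neighbours had medians between -0.09 and 0.03. Id1 was at 6.20, 21.1 and 9.84 CPM in Cre, against 12.6, 5.07 and 10.1 CPM in Flp, which is lower in Cre of clone 4, higher in clone 7 and level in clone 21. Id3 averaged 31.8 ± 6.24 CPM in Cre, against 34.4 ± 4.95 CPM in Flp (SD, n = 3 each), with clone ratios of -0.53, 0.28 and -0.11.

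The lysyl oxidase family crosslinks collagen and elastin and is induced by TGF-beta in fibroblasts. Lox itself had no read in any library. Loxl2 (chromosome 14, 69609068 to 69695834) was at 107, 195 and 201 CPM in Cre, against 96.4, 111 and 57.6 CPM in Flp, with Cre clone 4 below Flp clone 7. The clone ratios of 0.15, 0.82 and 1.80 gave a fitted log2 fold change of 0.92 (SE 0.31, edgeR adjusted p = 0.6642, DESeq2 adjusted p = 0.0730), which was 0.48 without clone 21. Its neighbours stood at 0.06, 0.93 and 0.64, so only in clone 21 did Loxl2 lie well above them, by 1.17. Loxl1 (chromosome 9) was at 33.0, 50.6 and 74.3 CPM in Cre, against 39.7, 49.5 and 6.04 CPM in Flp. The Flp library of clone 21 stood below the other 5, which made the clone 21 ratio 3.61 when those of clones 4 and 7 were -0.26 and 0.03.

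**Figure D4:**
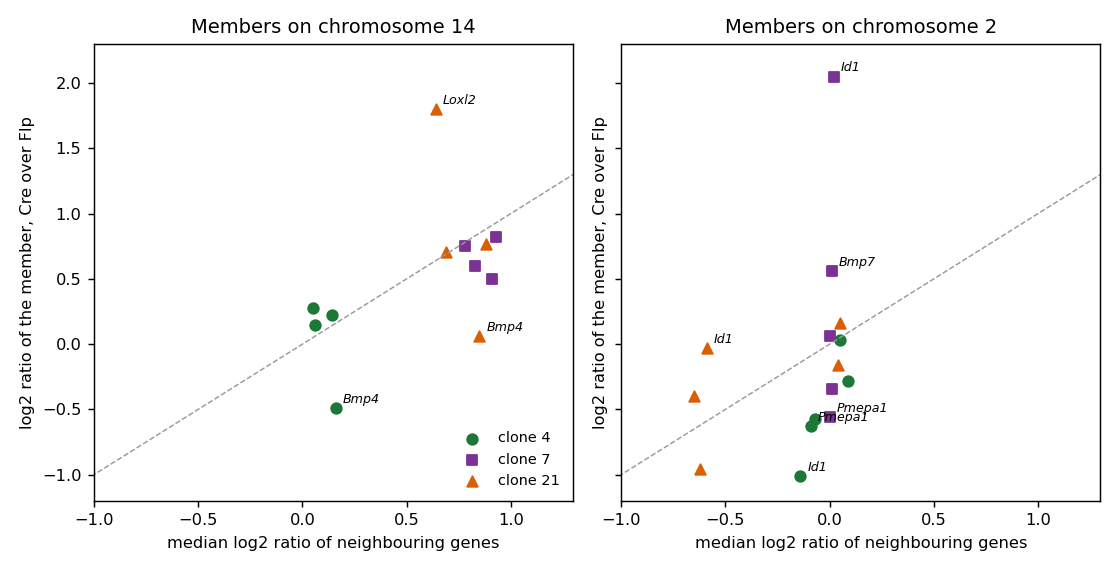
Log2 ratio of each member on chromosomes 14 (left) and 2 (right) against the median ratio of its 50 nearest expressed neighbours in the same clone. The dashed line marks equality, and names mark the points farthest from it (the 2 marked Pmepa1 are clones 4 and 7). Bmp7 of clone 4, at a difference of -0.5, is left unnamed. In clones 7 and 21 the chromosome 14 members sit at neighbour medians of 0.64 to 0.93, and in clone 21 Bmp7, Pmepa1 and Id1 sit at -0.65 to -0.59.

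All 4 members on chromosome 14, Bmpr1a, Bmp4, Loxl2 and Bmp1, lay among genes with medians of 0.64 to 0.93 in clones 7 and 21 and of 0.05 to 0.16 in clone 4. Bmp4 lay below its neighbours in every clone, by -0.65, -0.23 and -0.78 in clones 4, 7 and 21. On distal chromosome 2, Bmp7, Pmepa1 and Id1 had neighbours between -0.65 and -0.59 in clone 21 and between -0.14 and 0.02 in the other clones. Less these medians, Bmpr1a averaged -0.02 and Bmp1 -0.05 over the clones. How far the shift shared with neighbouring genes bears on these members was not tested.

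**Figure D5:**
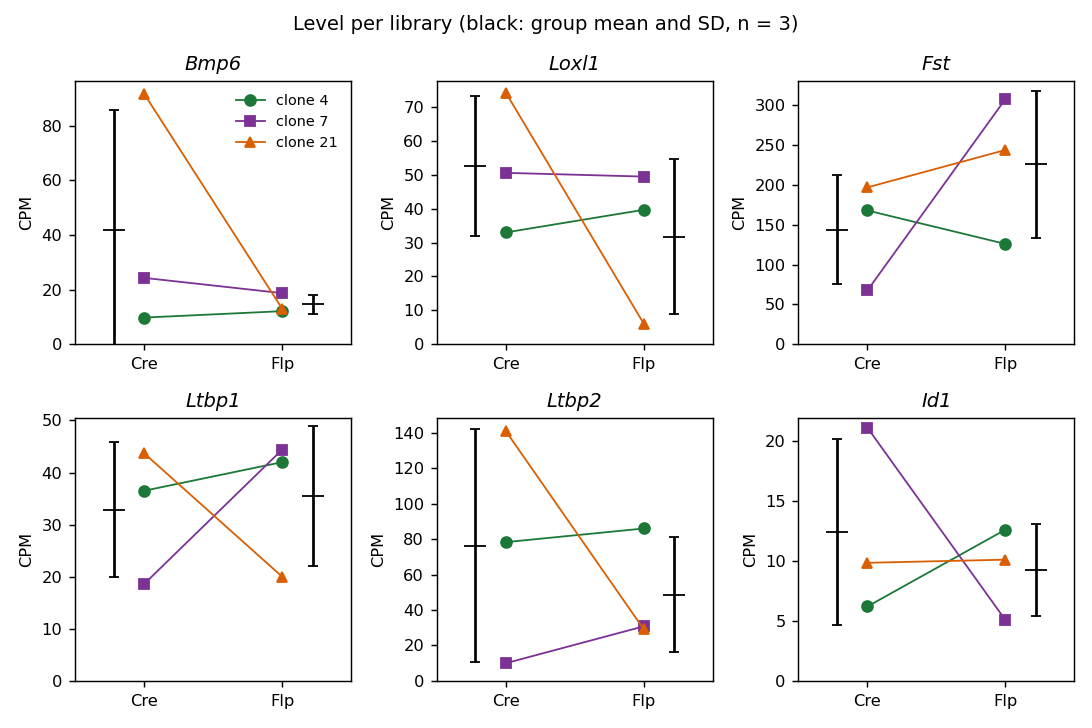
Level in CPM of 6 members whose difference rested on 1 or 2 clones; lines join the Cre (left) and Flp (right) library of a clone, and black bars are group means with SD (n = 3, the bar of Bmp6 in Cre reaches below 0). Cre clone 21 stands alone for Bmp6 at 91.7 CPM, Flp clone 21 for Loxl1 at 6.04 CPM, and lines cross for Fst, Ltbp1, Ltbp2 and Id1.

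Differences of at least 1 log2 unit within a clone were found for 2 members in clone 4, 6 in clone 7 and 6 in clone 21, against 8.81%, 11.2% and 9.55% of all genes. In 7 of the 38 members the highest library was at least 4 times the lowest, where 12.6% of all genes were so spread. They were Bmp6, Inhba, Ltbp2, Fst, Tgfbi, Id1 and Loxl1, of which Tgfbi alone had the same direction in all 3 clones. Bmp6, Loxl1, Fst, Ltbp1, Ltbp2 and Id1 were chosen for their values after these were seen.

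A further list of 98 genes of the same pathway, 61 of which passed the filter, had a median fitted log2 fold change of -0.01. With edgeR 0 passed, and 4 had an unadjusted p under 0.05 (6.56%). DESeq2 with the clone block called Fbn1 and Sostdc1 higher in Cre.

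Fbn1, fibrillin-1, which anchors latent TGF-beta complexes, was at 124, 75.6 and 110 CPM in Cre, against 46.6, 66.4 and 55.6 CPM in Flp (fitted 0.86, SE 0.24, edgeR adjusted p = 0.6311, DESeq2 adjusted p = 0.0441). Up to 20.1% of its exon bases are shared with another annotated gene, so its counts are uncertain. The authors' deposited table also called it, with an adjusted p of 0.0484. Sostdc1, a secreted BMP antagonist, was at 2.03, 6.10 and 4.02 CPM in Cre, against 0.404, 1.69 and 1.99 CPM in Flp (fitted 1.69, SE 0.38, edgeR adjusted p = 0.6065, DESeq2 adjusted p = 0.0172). Nedd4l, a ligase that degrades activated Smad2 and Smad3, stood at 0.52, Loxl4 at 0.52, and the Bmp1-like protease gene Tll1 at -1.21. Their edgeR adjusted p values were 0.6065, 0.8337 and 0.7327, and DESeq2 called none. Each had 1 direction in clones 4, 7 and 21, with ratios of 0.38, 0.43 and 0.75 for Nedd4l. For Loxl4 they were 0.47, 0.05 and 1.05, with clone 7 nearly level. For Tll1 they were -2.51, -0.97 and -0.10, with clone 21 nearly level. The standard TGF-beta targets Ccn2 and Fn1 averaged 1030 ± 321 and 815 ± 132 CPM in Cre, against 983 ± 18.4 and 697 ± 221 CPM in Flp (SD, n = 3 each). Both were chosen after their values were seen, and 23.2% of the exon bases of Ccn2 are shared with another annotated gene. They do not stand for the targets of the further list. Of those, 17 passed the filter, with a median fitted value of -0.23, 7 above 0 and 10 below.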

How the data were processed

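Raw counts per Ensembl gene, 1 file per library, were deposited by the authors with no normalization. The submitters' processing notes list trimming with Trim Galore 0.4.3.0, quality checks with FastQC 0.67, alignment software STAR 2.5.2b-2, the counter featureCounts 1.6.0.3, and DESeq2 2.11.40.1, and name mm10 and GRCm38. No source used here gives the strand setting or the annotation release. The authors also deposited a comparison table holding a mean of normalized counts (a signal), a log2 fold change, its standard error and a test score, a p-value and an adjusted p-value. Its signs matched those computed here for 95.6% of genes, so a positive value was read as higher in Cre.

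Symbols, coordinates and merged exon lengths came from GENCODE M21 on GRCm38. In R 4.3.3, filterByExpr, TMM scaling and edgeR 4.0.16's quasi-likelihood test of Cre against Flp, blocked on clone, were applied to all genes, with 2 residual degrees of freedom, two-sided, Benjamini-Hochberg threshold 0.05. Standard errors came from the F statistic. DESeq2 1.42.0 with the block was an alternative. CPM uses TMM-scaled library sizes, and clone ratios use a prior count of 2. Neighbours were the 25 nearest genes on each side with a mean of at least 5 CPM. The block follows the series' design, as clones are cell lines. As a check, Cre and Flp deviations from their group mean had correlations of 0.202 (clone 4), 0.115 (clone 7) and 0.304 (clone 21). Between unlike clones these correlations ran from -0.268 to 0.0233. The tests were first tested on simulated data. Full values were given for members called by DESeq2 or in the authors' deposited table, for those with a fitted log2 fold change of at least 0.5 in size, 1 direction in all clones and a mean of at least 1 CPM, and for the highest of each role per kilobase. Some results for other genes of the pathway are not reported here. Members and lists were chosen with earlier results of these data known. Alternatives were no block, DESeq2, RLE scaling, no filter, an adjusted p of 0.1, leaving out each clone, subtracting neighbours and a prior count of 0.5; leaving out members on chromosomes 14 and 2 was added after the data were seen. Figures were drawn with matplotlib 3.10.9.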

Additional observations from a re-analysis of the deposited data

Results flagged for a closer look

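In 3 members the clones went opposite ways by at least 1 log2 unit, which 2.89% of all genes tested did. With 1 pair of libraries per clone, this difference between clones was not tested. Ltbp1 had a log2 ratio of Cre over Flp of 1.13 in clone 21 and -1.26 in clone 7. Ltbp2 had 2.27 in clone 21 and -1.62 in clone 7. Id1 had 2.05 in clone 7 and -1.01 in clone 4.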

How the results depend on the processing

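edgeR called 0 genes and 0 members with the clone block, and also without the clone block (no replicate block), with RLE size factors, at an adjusted p under 0.1 and without each clone in turn. DESeq2 with the clone block called 198 genes and 1 member. edgeR with no filter on low counts called 224 genes and 4 members, Tgfbi, Bmpr1a, Pmepa1 and Loxl2. The cause of the difference between these fits was not tested. The members' median of -0.02 was -0.03 without the block, -0.10 to 0.04 without single clones, -0.08 less neighbouring genes and -0.07 without members on chromosomes 14 and 2, an alternative chosen after seeing the data. Less neighbours, Bmpr1a stood at -0.02 and Bmp1 at -0.05. Leaving out single clones, Smad4 ranged from 0.00 (without clone 7) to 0.21 and Ltbp3 from -0.22 to 0.08 (without clone 7). Neither the blocked nor the unblocked fit by edgeR called a gene, so their calls cannot show whether the block matters. Depth limits what can be said of Bmp2, Inhbb, Nog, Grem1 and Lox, which had at most 24 reads in any library.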
